A study of Mus musculus with 19 samples.

Results

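Dorsal root crush in neurons that carried α9k1 was examined in 10 of the 19 libraries of the study. These are the 4 libraries labelled as α9 with crush (α9k1-crush) and the 6 labelled as α9 without crush (α9k1-naive), and they were chosen by their labels alone. Neurons of α9k1 ganglia had received AAV5-CAG-α9-V5, which encodes α9 integrin, together with AAV5-CMV-kindlin1-GFP, which encodes the integrin activator kindlin-1. The other 9 libraries are from ganglia injected with AAV5-CMV-fGFP, 4 with crush (GFP-crush) and 5 without (GFP-naive), and entered the same fit, but are described only beside the α9k1 values. In all 4 groups the virus was injected into left cervical dorsal root ganglia (DRGs), which were taken 8 weeks later, and GFP-positive cells were sorted by FACS before RNA-seq. Of the α9k1 viruses only that for kindlin-1 carries GFP, so sorted α9k1 cells need not all hold α9 integrin. The labels give C57BL/6 mice as the animals of every group, whereas the methods of the study name adult male Lewis rats, and all gene symbols here are those of the mouse annotation to which the reads were mapped. The study calls the libraries biological replicates, but the labels do not say whether those of a group came from separate animals, so p-values measure the spread between libraries.

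Sensory neurons of the DRG send one branch to the periphery and another through the dorsal root into the spinal cord. Large-diameter proprioceptors and mechanoreceptors are rich in neurofilament and signal touch, stretch and limb position, whereas small-diameter nociceptors signal heat, itch and damage through TRP channels and neuropeptides. Crush of the dorsal root cuts the central branch, which regrows poorly. α9 integrin is a receptor for tenascin-C and osteopontin, and kindlins bind the tails of β integrins and help to activate them. A cut to the peripheral branch, by contrast, induces transcription factors such as Atf3 and Jun and the growth genes that follow them.

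The α9k1 libraries held 47.6 to 83.6 M read pairs after crush and 52.2 to 68.4 M without it, and 51.5% to 53.4% and 49.5% to 54.1% of their reads aligned. In these 10 libraries, 3.96% to 4.05% of aligned bases were mismatches to the mouse genome. The deposited values, for 12629 genes, are log2 counts that the authors normalised with cqn, and the counting error of a single value cannot be had from them. Profiles correlated across genes at 0.956 to 0.968 among α9k1-crush libraries, at 0.949 to 0.968 among α9k1-naive libraries and at 0.854 to 0.930 between them. Pan-neuronal markers had a median rank at the 95.8th percentile of all genes by mean value. Markers of other cells were present too: the mean of 14 Schwann cell markers was 7.81 ± 0.30 after crush (SD, n = 4) against 6.14 ± 0.13 without it (n = 6), and that of 13 satellite glia markers was 7.11 ± 0.23 and 8.39 ± 0.13. Their part in the differences below was not tested, and in bulk libraries fewer cells of a type cannot be told apart from less RNA per cell.

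All 19 libraries entered a limma fit whose 3 covariates were the leading principal components of 48 sequencing and alignment metrics (AlignSeq.PC1 to AlignSeq.PC3). A gene was called where its Benjamini-Hochberg adjusted p was under 0.1. The gene lists used below were chosen with earlier results of these data known, so their counts and medians are descriptions. A log2FC is the value after crush minus the value without it at equal covariates, so that 1 is a doubling. With α9k1, dorsal root crush gave 565 higher genes (4.47% of those tested) and 665 lower genes (5.27%), together 9.74%. Of the higher genes 144 rose by over 2 on the log2 scale, and of the lower genes 67 fell by over 2. The third covariate separated the 2 groups compared, lying between -4.49 and -2.55 in α9k1-crush and between 0.54 and 5.03 in α9k1-naive, so a difference between groups and a difference in this covariate cannot be told apart by these libraries alone. Without covariates, 3593 genes were higher and 3424 lower (28.5% and 27.1%), and 3624 and 3523 without only the third one. The log2FC of some genes named below was over 1.5 times its size without covariates, where it was 2.60 for Sprr2c-ps, 2.88 for Sprr2b, -1.73 for Cryba2, -1.47 for Mstn, -1.29 for Ucn, -1.11 for Cacna2d1, -1.03 for Trib3, 0.44 for Cdc16, 0.55 for Hspa8, 0.56 for Kif5b, -1.49 for Trpv1, -0.29 for Stat3, -0.81 for Src and 1.16 for Emcn, and for others it is given beside the gene. It was over 1.5 times larger without covariates for Nsf (2.0), Vamp1 (2.14), Snap25 (1.47), Jun (-1.37) and Sqle (-0.91, called there). Leaving out α9k1-naive replicate 4 left 274 higher and 377 lower genes, and leaving out α9k1-naive replicate 1 left 359 and 375. A core of 182 higher and 254 lower genes was called in each of the 19 fits that left out 1 library and in the fit without covariates, with deposited values of the 2 groups that did not overlap. Non-overlapping values alone were found for 33.4% of all genes. For a called gene given below with its log2FC that was not called in all 19 of those fits, the number of fits that called it is given, and an exact permutation test of the deposited values, 4 against 6, gave 0.00952 (two-sided) for every gene whose groups did not overlap, the smallest p that it allows. Lack of overlap fixes this p and was part of the rule by which some genes were named, so the test adds no support for them.

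In most genes called, the α9k1-naive mean was the most extreme of the 4 group means. Among the 565 higher genes, the α9k1-naive mean was the lowest of the 4 group means for 506 genes (89.6%), against 43.2% of genes with a positive log2FC that were not called. Among the 665 lower genes it was the highest for 514 (77.3%), against 33.6% of genes with a negative log2FC that were not called. This counts the order of the means and not the gap to the next group. The call itself favours genes with an extreme α9k1-naive mean, so these shares are a description.

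**Figure D1:**
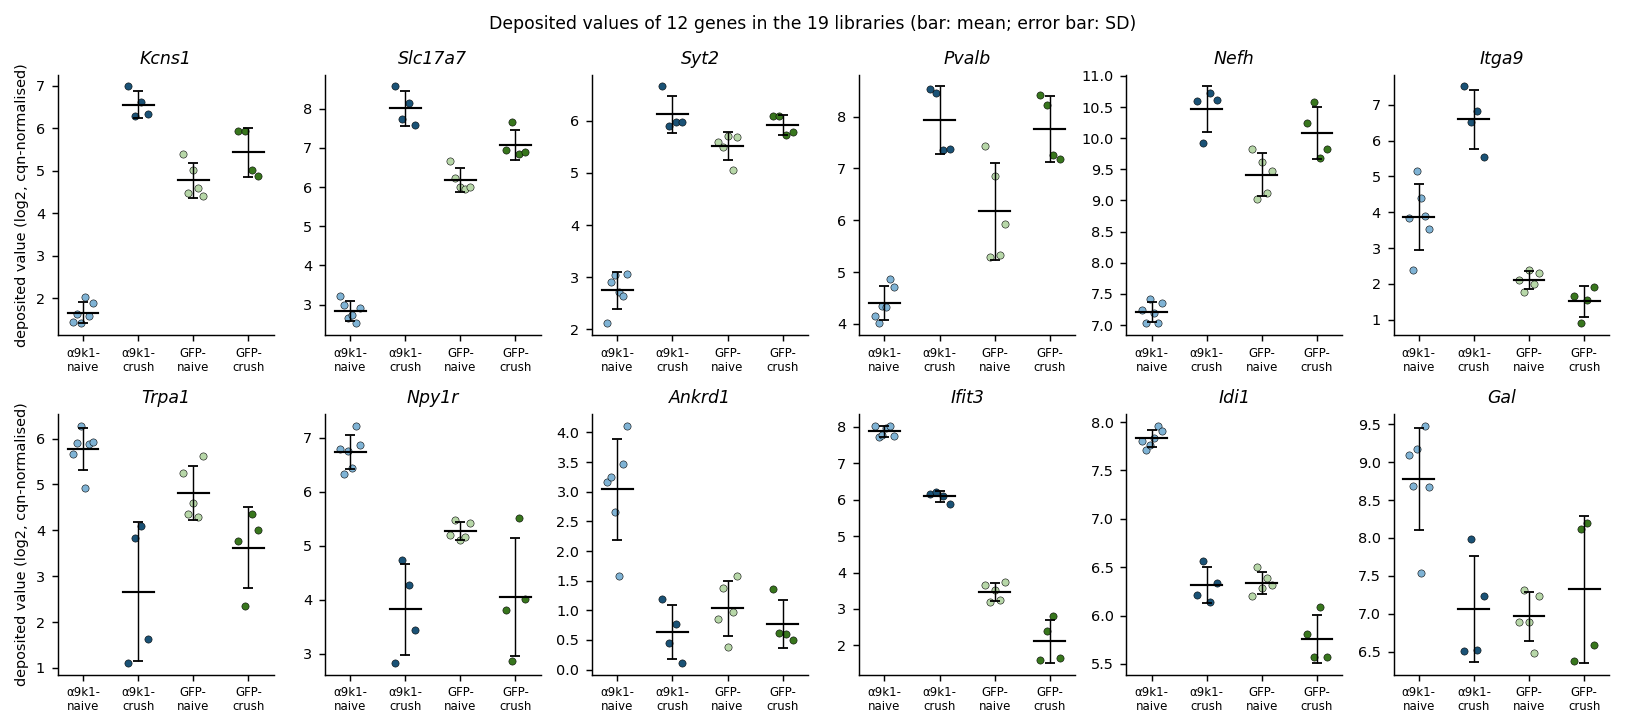
Deposited log2 values of 12 genes (y axes, not starting at 0) in the 4 groups (x axes), with a point for each library, a bar for the group mean and an error bar for its SD (n = 6, 4, 5 and 4 from left to right). In the upper row all α9k1-crush points lie above all α9k1-naive points, and in Kcns1, Slc17a7, Syt2, Pvalb and Nefh both GFP groups lie above α9k1-naive too; in the lower row the α9k1-crush points lie below the α9k1-naive points in every panel but that of Gal, where they overlap.

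The transgenes themselves were higher after crush. Itga9 was deposited at 7.51, 6.51, 6.82 and 5.53 in the 4 α9k1-crush libraries and between 2.38 and 5.16 (median 3.87) in the 6 α9k1-naive libraries, a log2FC of 3.51 ± 0.93 (SE; adjusted p = 0.0404; 18 fits). Fermt1, which encodes kindlin-1, was at 7.70, 6.82, 7.73 and 6.42 after crush and at 5.18 to 6.00 (median 5.62) without it, a log2FC of 1.67 ± 0.49 (adjusted p = 0.0591; 14 fits). All crush libraries were above all naive libraries for both genes, so the groups compared also differed in transgene level, and the part of this difference in the other genes was not tested. Fermt1 was higher in all 10 α9k1 libraries than in any GFP library. Itga9 was at 1.77 to 2.40 in GFP-naive and at 0.90 to 1.92 in GFP-crush, and α9k1-naive replicate 2, at 2.38, was within the GFP-naive range, so its Itga9 value does not set it apart from libraries without the α9 virus. Reads of transgenes and endogenous genes were not told apart.

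The genes that rose most with crush included markers of large-diameter sensory neurons. Kcns1 (ENSMUSG00000040164, chromosome 2, 164163619 to 164171113, GRCm38), a modulatory potassium channel subunit of large DRG neurons, was at 6.98, 6.28, 6.63 and 6.34 after crush and at 1.41 to 2.03 (median 1.61) without it. Its log2FC was 4.95 ± 0.57 (SE; adjusted p = 5.83e-04). Slc17a7 (ENSMUSG00000070570, chromosome 7, 45163949 to 45176142), which encodes the vesicular glutamate transporter VGLUT1 of proprioceptors and mechanoreceptors, was at 8.57, 7.74, 8.14 and 7.58 after crush and at 2.52 to 3.23 (median 2.82) without it. That is a log2FC of 4.26 ± 0.42 (adjusted p = 1.74e-04). In both genes the groups were separated by a gap many times the spread within either. The GFP libraries lay between them for Kcns1, which averaged 4.78 in GFP-naive and 5.44 in GFP-crush. For Slc17a7 they were above α9k1-naive too, and GFP-crush replicate 2, at 7.66, was within the α9k1-crush range.

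Parvalbumin (Pvalb), the calcium buffer of proprioceptors, was at 8.54, 8.45, 7.36 and 7.37 after crush against 4.01 to 4.86 (median 4.33), a log2FC of 2.97 ± 0.86 (SE; adjusted p = 0.0558; 16 fits). The 3 neurofilament subunits rose together, with a log2FC of 2.79 ± 0.45 for Nefh (adjusted p = 0.00376), 2.73 ± 0.42 for Nefl (0.00275) and 2.71 ± 0.38 for Nefm (0.00154). Nefh was at 10.59, 9.92, 10.73 and 10.61 after crush and at 7.03 to 7.42 without it. The calcium-binding protein gene Necab2 rose by 1.96 (adjusted p = 0.0179). Of 19 measured mechanoreceptor and proprioceptor markers, 5 were called higher (Kcns1, Slc17a7, Pvalb, Nefh and Necab2) and 2 lower, with a median log2FC of 0.98 against 0.00 over all genes. The lower ones were Ntrk2, the receptor for BDNF, at -1.16 (adjusted p = 0.0301), and Spp1, which encodes osteopontin, at -1.50 (adjusted p = 0.0484; 17 fits). Without covariates 13 of the 19 were called higher. The mean of this list was 5.46 to 5.91 in α9k1-crush and 4.06 to 4.16 in α9k1-naive, where it varied least of the 4 groups. Pan-neuronal markers were also higher in part, 5 of 18 with 0 lower (without covariates, 13 and 1), and their mean was 7.81 to 8.19 after crush against 6.92 to 7.31 without it. Their part in the rise of the other neuronal genes was not tested.

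Further genes with the highest log2FC that met the naming rule were Hs3st2, an enzyme of heparan sulfate sulfation, at 4.34 ± 0.46 (SE; adjusted p = 3.02e-04), Smim18 at 4.10 ± 0.38 (1.26e-04) and Rasgrp2, a Ras-family exchange factor, at 4.03 ± 0.85 (0.0136). Htr1d, a serotonin receptor and the target of triptans, rose by 4.03 ± 0.52 (adjusted p = 0.00119). Next came 1500015O10Rik at 3.89, the matrix protein gene Thbs2 at 3.86, the zinc transporter gene Tmem163 at 3.82 and Ntng1, which encodes netrin-G1, at 3.79. All 8 were called in each of the 19 fits, and their α9k1-crush values lay above all α9k1-naive values.

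Channel and synaptic genes went both ways. Among 11 measured sodium channel genes, 3 were higher, around a median log2FC of -0.27, among them Scn1a at 2.13 (adjusted p = 0.00651) and Scn7a, a glial and sensory sodium sensor, at 1.52 (0.0228). Fgf13, a regulatory partner of sodium channels, was the member called lower, at -0.96 (0.0781; 9 fits). Of 40 potassium channel genes, 5 were higher and 3 lower (without covariates, 19 and 8, and 5 and 2 for sodium channels). The higher ones were Kcns1, Kcnk1 at 3.05 (adjusted p = 0.00672), Kcna1, the axonal Kv1.1 channel, at 2.99 (0.00147), its β subunit Kcnab1 at 2.43 (0.0236; 18 fits) and the pacemaker channel gene Hcn2 at 1.10 (0.094; 5 fits). The lower ones were Kcnn3 at -1.98 (0.00357), Kcnn4 at -1.55 (0.00399) and the glial channel gene Kcnj10 at -1.32 (0.0188). Of 40 synaptic vesicle and SNARE genes, 8 were higher and 3 lower, around a median log2FC of 0.00 (without covariates, 18 and 12). Syt2, the calcium sensor of fast release, was at 6.66, 5.89, 5.97 and 5.98 after crush and at 2.11 to 3.07 (median 2.81) without it, a log2FC of 3.14 ± 0.44 (SE; adjusted p = 0.00153). Syt3 rose by 2.03, Vamp1 by 1.42 (18 fits), Cplx1 by 1.25 (18 fits) and Nsf by 1.25, while synaptoporin (Synpr) fell by 1.87 (18 fits). The other 2 lower genes were Syt7 and Vamp3, and the higher ones also included Syn1 at 0.80 (9 fits) and Snap25 at 0.92 (7 fits). Of 18 GABA and glutamate receptor genes, 3 were higher (without covariates, 12, and 5 lower), among them Gabra2 at 1.61 and Grik4 at 1.40 (7 fits), and 2 were lower, Gabbr1 and Grm7. P2rx5, an ATP-gated channel gene, rose by 1.94 (0.0678; 16 fits), and Cacng2, a calcium channel and AMPA receptor auxiliary subunit gene, by 1.96 (0.0432; 18 fits). Their lists had 1 higher and 2 lower of 22 TRP, Piezo, ASIC and P2X channel genes (without covariates, 10 and 6) and 1 higher and 1 lower of 10 calcium channel genes (4 and 3).

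Nociceptor markers were called lower where they were called. Trpa1 (ENSMUSG00000032769, chromosome 1, 14872648 to 14918862), the channel for irritants, was at 1.11, 3.83, 4.09 and 1.62 after crush and at 4.92 to 6.28 (median 5.89) without it. Its log2FC was -3.92 ± 1.11 (SE; adjusted p = 0.0523; 15 fits), and replicates 1 and 4 of α9k1-crush were far below the other crush libraries. The capsaicin receptor gene Trpv1 was at 3.93, 6.54, 4.81 and 5.11 against 5.82 to 6.93, with overlapping groups and a log2FC of -2.65 ± 0.77 (adjusted p = 0.0588; 14 fits). The itch peptide gene Nppb fell by 2.24 (adjusted p = 0.0159), the oncostatin M receptor gene Osmr by 1.42 (0.052; 15 fits) and Prdm12, a transcription factor of nociceptors, fell by 1.21 (0.0907; 7 fits). Of 20 measured nociceptor markers these 5 were called lower and 0 higher, and 18 had a negative log2FC, with a median of -1.18 (without covariates, 11 lower and 0 higher). Of 14 neurotrophin and GDNF family receptor genes, 2 were lower and 1 higher (without covariates, 3 and 2). Gfra3, the artemin receptor gene, had a log2FC of -2.94 ± 1.18 that was not called (adjusted p = 0.165), whereas it was called lower without covariates, at -2.77. Leaving out α9k1-naive replicate 4 took Gfra3 to -1.72 and Trpa1 to -2.53. The mean of the nociceptor markers ranged from 3.95 to 5.54 in α9k1-crush and from 5.62 to 6.20 in α9k1-naive, and the crush libraries varied more (SD 0.67 against 0.21).

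**Figure D2:**
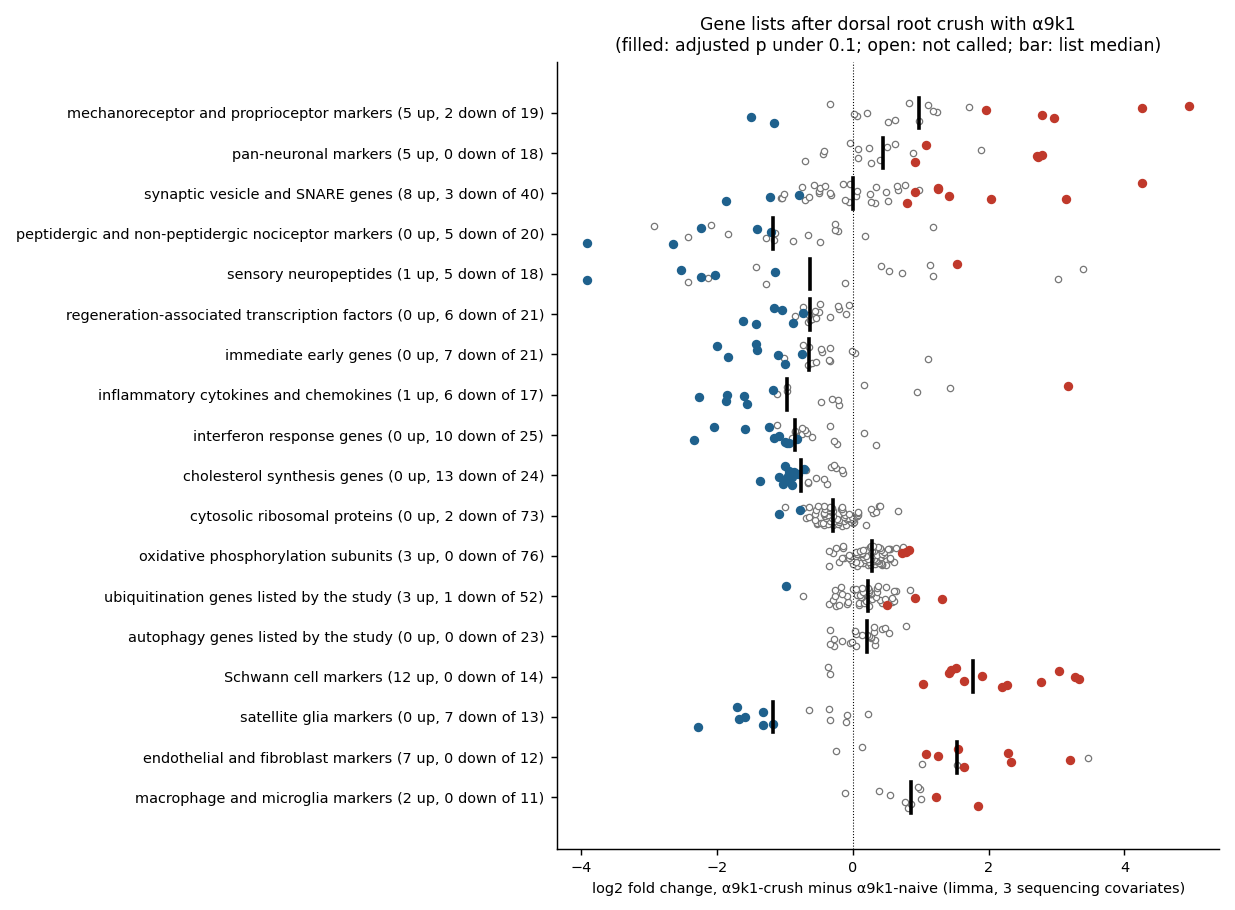
Log2FC of α9k1-crush against α9k1-naive (x axis, limma with 3 covariates) for every measured gene of 18 lists (y axis, with counts called up and down), filled where the adjusted p was under 0.1 and with a black bar at the list median. Schwann cell markers and large-fibre markers lie to the right (medians 1.77 and 0.98), and nociceptor, satellite glia, interferon and cholesterol genes lie to the left (medians -1.18, -1.18, -0.85 and -0.76).

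Of 18 neuropeptide genes, 5 were lower and 1 higher (without covariates, 9 and 3), with 10 at a negative and 8 at a positive log2FC. Galanin (Gal), a peptide that injured sensory neurons make, was at 6.51, 7.98, 6.52 and 7.24 after crush and at 7.54 to 9.48 (median 8.90) without it, a log2FC of -3.92 ± 0.72 (SE; adjusted p = 0.00672) in groups that overlapped. On the deposited values without covariates the difference was smaller, at -1.72. The gene for PACAP, Adcyap1, fell by 2.03 (adjusted p = 0.0466; 18 fits), urocortin (Ucn) by 2.53 (0.0973; 4 fits) and Grp by 1.14 (0.0612; 13 fits), beside Nppb. Chromogranin B (Chgb) rose by 1.53 (adjusted p = 0.0261).

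The other genes with the lowest log2FC under the naming rule were Ankrd1, a stretch-responsive nuclear protein gene, at -3.50 ± 0.79 (SE; adjusted p = 0.0192; 18 fits), Lamp5 at -3.21 (0.0982; 5 fits), Cryba2 at -3.19 (0.031; 18 fits) and myostatin (Mstn) at -2.84 (0.0193). Npy1r, a neuropeptide Y receptor gene, was at 2.83, 4.73, 4.27 and 3.43 after crush and at 6.33 to 7.22 (median 6.77) without it, a log2FC of -2.83 ± 0.89 (adjusted p = 0.0787; 8 fits). Agt, the angiotensin precursor gene, fell by 2.79 ± 0.35 (adjusted p = 0.00114), Oasl1 by 2.78, Clic3 by 2.77 (18 fits), Ddit4l by 2.77 (6 fits) and the deadenylase gene Noct by 2.55.

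Regeneration-associated transcription factors all had a negative log2FC, and some were called lower. Atf3, the injury-induced factor, was at 8.55, 9.02, 8.25 and 8.73 after crush and at 10.03 to 10.17 (median 10.06) without it, a log2FC of -1.42 ± 0.30 (SE; adjusted p = 0.0134). The GFP libraries were lower still, averaging 7.08 in GFP-naive and 6.52 in GFP-crush. Fosl1 fell by 1.62 (adjusted p = 0.0196), Bhlhe40 by 1.16 (0.0308), Cebpd by 1.05 (0.0443; 18 fits), Jun by 0.89 (0.0315) and Stat3, the cytokine signal transducer, by 0.73 (0.0541; 15 fits, groups overlapping). In all, 6 of 21 were called lower and 0 higher. All 21 had a negative log2FC (median -0.63), and 17 were called lower without covariates. Of 21 immediate early genes 7 were lower and 0 higher (median -0.65), with 20 lower and 1 higher without covariates. Among them Maff fell by 2.0 (adjusted p = 0.0134), Arc by 1.84 (0.0363; 17 fits), Dusp5 by 1.41 and Ier2 by 1.10 (16 fits).

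Of 24 growth effectors, 2 were higher and 5 lower, with 17 at a negative log2FC and a median of -0.44, and 5 were higher and 12 lower without covariates. Itga7, an integrin of regenerating neurons, was at 7.52, 7.18, 7.52 and 7.45 after crush and at 6.09 to 6.47 without it, a log2FC of 1.25 ± 0.23 (SE; adjusted p = 0.00743). The other effector called higher was Sprr2b at 4.96 ± 1.51 (adjusted p = 0.068; 11 fits), a small proline-rich protein gene. Its neighbour Sprr2c-ps, a processed pseudogene, had the highest log2FC of the genes under the naming rule, 5.87 ± 1.70 (0.0575; 15 fits). Sprr2c-ps was at 1.75, 0.66, 3.37 and 4.71 after crush and between -0.06 and 0.30 without it, and since genes of this family are near-identical, reads may have been split between them. GFP libraries held it too, at up to 4.41 in GFP-crush and up to 3.18 in GFP-naive. The other measured gene of the family, Sprr1a, had a log2FC of -2.23 ± 1.19 that was not called (adjusted p = 0.294) and of -1.27 without covariates, where it was called lower. The lower effectors included the α2δ calcium channel subunit gene Cacna2d1 at -1.88 (0.0415; 17 fits), Stmn4 at -1.69 (0.0192; 18 fits, groups overlapping, and -0.58 without covariates), Cd44 at -1.22 (0.0704; 10 fits) and Hspb1 at -0.81 (0.0466; 16 fits). Gap43, the growth cone protein gene, had a log2FC of -1.24 ± 0.49 that was not called (adjusted p = 0.156) and was -0.73 without α9k1-naive replicate 4. Without covariates Gap43 was called lower, at -0.94.

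Of 17 cytokine and chemokine genes, 6 were lower after crush and 1 higher (without covariates, 12 and 1), and 13 had a negative log2FC (median -0.96). Ccl2, the monocyte chemokine, was at 9.97, 10.25, 9.80 and 10.07 after crush and at 11.85 to 12.11 (median 12.01) without it, a log2FC of -1.87 ± 0.28 (SE; adjusted p = 0.00239). Il6 was at 5.38, 5.67, 5.22 and 5.19 after crush and at 7.44 to 7.67 without it (log2FC -1.56 ± 0.36; adjusted p = 0.02; 18 fits), whereas it averaged 1.79 in GFP-naive and 0.43 in GFP-crush. Ccl7 fell by 2.27 (adjusted p = 0.0159), Cxcl1 by 1.86 (0.019), Ccl11 by 1.60 (0.00672) and the alarmin gene Il33 by 1.18 (0.0499; 18 fits). The gene called higher was Cxcl14, at 4.41, 3.80, 2.52 and 3.98 after crush and 0.87 to 1.27 without it, a log2FC of 3.17 ± 0.52 (adjusted p = 0.00399). Of 15 NF-kB subunits and feedback inhibitors, 0 were called with limma at equal covariates, 3 had an unadjusted p under 0.05, and 2 were higher and 10 lower without covariates.

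Of 25 interferon response genes, 10 were called lower and 0 higher, and 23 had a negative log2FC, with a median of -0.85 (without covariates, 19 lower, 1 higher and a median of -0.86). Ifit3 (ENSMUSG00000074896, chromosome 19, 34583531 to 34588731), an antiviral effector, was at 6.16, 6.20, 6.11 and 5.88 after crush and at 7.73 to 8.03 (median 7.87) without it, a log2FC of -2.34 ± 0.41 (SE; adjusted p = 0.00562). Mb21d1, which encodes the DNA sensor cGAS, fell by 2.05 (adjusted p = 0.00485), Rsad2, which encodes viperin, by 1.58 (0.0342; 18 fits), the RNA sensor gene Ifih1 by 1.16 (0.0448; 18 fits), Irf7 by 0.97 (0.0188), Irf1 by 0.94 (0.0184) and Isg15 by 0.83 (0.0865; 6 fits). In Ifit3, Mb21d1 and Irf1 every crush library was below every naive library, and GFP-naive was lower than either, with Ifit3 averaging 3.47.

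Interferon-stimulated response elements, where STAT and IRF factors bind, were looked for as TTTC, any 2 bases and TTTC again on either strand in the 250 bases before the annotated start, a motif chosen after the values were seen. They were found in 10 of 19 interferon response genes with a promoter in the RefSeq table (52.6%), in 4 of the 8 that were called lower (50%), and in 2.44% of all 8364 genes matched. The 4 promoters of genes called lower are shown because they hold this motif, in capitals, 5′ to 3′ on the strand of the gene (RefSeq, GRCm38.p6). Ifit3 is at chr19:34583279-34583528 on the + strand, and Rsad2, Oas1a and Isg15 are at chr12:26456453-26456702, chr5:120907526-120907775 and chr4:156200819-156201068 on the - strand. The capitals of Isg15 hold 3 overlapping matches and those of Oas1a 2. A match is a description of the sequence and does not show that a factor bound it.
Ifit3: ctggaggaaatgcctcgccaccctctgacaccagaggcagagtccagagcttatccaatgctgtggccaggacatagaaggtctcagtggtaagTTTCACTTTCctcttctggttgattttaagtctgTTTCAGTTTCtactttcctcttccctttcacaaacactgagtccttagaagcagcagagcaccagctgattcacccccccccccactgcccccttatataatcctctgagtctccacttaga
Rsad2: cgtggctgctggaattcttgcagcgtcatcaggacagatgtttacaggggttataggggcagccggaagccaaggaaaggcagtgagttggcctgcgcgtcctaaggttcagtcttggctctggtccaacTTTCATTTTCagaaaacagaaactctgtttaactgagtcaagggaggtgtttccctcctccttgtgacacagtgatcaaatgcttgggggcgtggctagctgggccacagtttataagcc
Oas1a: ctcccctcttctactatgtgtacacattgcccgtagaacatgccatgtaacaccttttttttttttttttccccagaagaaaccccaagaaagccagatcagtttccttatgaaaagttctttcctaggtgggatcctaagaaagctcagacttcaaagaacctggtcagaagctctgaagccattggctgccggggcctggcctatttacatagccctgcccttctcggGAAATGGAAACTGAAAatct
Isg15: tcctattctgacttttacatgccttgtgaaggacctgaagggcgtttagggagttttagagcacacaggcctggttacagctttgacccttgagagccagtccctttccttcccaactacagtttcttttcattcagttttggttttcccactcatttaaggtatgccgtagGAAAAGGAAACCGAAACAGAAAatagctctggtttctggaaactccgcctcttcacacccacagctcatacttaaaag

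All 24 cholesterol synthesis genes had a negative log2FC, 13 were called lower and 0 higher, and the median was -0.76, with 22 lower without covariates. Idi1 (ENSMUSG00000058258, chromosome 13, 8885501 to 8892451), the isomerase of the isoprenoid steps, was at 6.22, 6.57, 6.14 and 6.33 after crush and at 7.71 to 7.96 (median 7.82) without it. Its log2FC was -1.36 ± 0.23 (SE; adjusted p = 0.00446). Cyp51 fell by 1.09 (adjusted p = 0.0398; 17 fits), Insig1, the sterol-sensing regulator, by 0.99 (0.0124), Fdps by 0.97 (0.0136), Msmo1 by 0.94 (0.0303) and Hmgcs1 by 0.90 (0.0301; 18 fits). Squalene epoxidase (Sqle) had a log2FC of -0.54 that was not called (adjusted p = 0.192). The 4 crush libraries were below all naive libraries in 18 of the 24 genes, against 16.1% of all genes.

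Sterol regulatory elements, where SREBP factors bind, were looked for as TCACNCCAC on either strand, a motif also chosen after the values were seen. The upstream 250 bases of 18 of the 24 genes were in the RefSeq table, and 1 of them held the motif (5.56%), against 0.968% of all genes matched. That promoter, of Hmgcs1 at chr13:119690101-119690350 on the + strand (GRCm38.p6), is shown with the match in capitals, as it is the only matched promoter of this list with these letters.
Hmgcs1: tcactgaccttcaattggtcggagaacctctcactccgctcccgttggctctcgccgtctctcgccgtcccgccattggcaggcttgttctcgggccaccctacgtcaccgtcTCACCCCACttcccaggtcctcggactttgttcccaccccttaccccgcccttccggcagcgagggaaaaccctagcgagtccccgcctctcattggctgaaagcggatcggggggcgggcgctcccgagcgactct

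Among the 399 higher genes and the 437 lower genes with a promoter matched, the AP-1 motif TGANTCA was found in 4.76% and 6.18%, against 4.05% of all genes matched. The cyclic AMP response element TGACGTCA was found in 3.26% and 2.97% (all, 2.92%), the RUNX motif TGTGGT in 8.02% and 10.5% (all, 10.3%) and the MEF2 motif (CTA, any 4 bases, TAG) in 2.01% and 2.97% (all, 2.42%). The YY1 motif AAGATGGC was found in 1.25% and 0.915% (all, 2.04%), and the E2F motifs TTTCGCGC or TTTGGCGC in 1.5% and 0.458% (all, 1.26%). These shares were not tested.

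Stress genes were split. Atf4, the translation-controlled factor of the integrated stress response, was at 8.02, 8.45, 8.03 and 8.07 after crush and at 9.59 to 9.88 (median 9.73) without it, a log2FC of -1.53 ± 0.21 (SE; adjusted p = 0.0015). The serine synthesis genes Phgdh and Psat1 fell by 1.64 (adjusted p = 0.00901) and 1.02 (0.0424; 17 fits), Trib3 by 1.57 (0.099; 4 fits) and Ddit3, which encodes CHOP, by 0.71 (0.058; 15 fits). Over 29 measured ATF4 targets, 3 were higher (the tRNA synthetase genes Sars, Wars and Eprs) and 5 lower, with a median of 0.01 (without covariates, 12 and 10). Of 30 heat shock and chaperonin genes, 4 were lower and 1 higher (without covariates, 7 and 13). The co-chaperone gene Dnajb1 fell by 1.38 (adjusted p = 0.00913) and Hspa5, which encodes the ER chaperone BiP, by 0.81 (0.0246), whereas Hspa8 rose by 0.90 (0.0337; 18 fits). Of 73 cytosolic ribosomal protein genes, 2 were lower (Rpl39 and Rps15a), 0 higher, and 59 had a negative log2FC (median -0.29), with 46 lower and 2 higher without covariates. Of 76 oxidative phosphorylation genes, 3 were higher, 0 lower, and 63 had a positive log2FC (median 0.27), with 41 higher and 6 lower without covariates. Cox5a, a cytochrome oxidase subunit gene, rose by 0.78 (adjusted p = 0.0224) and Cyc1 by 0.72 (0.0813; 8 fits), beside Cox7b.

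The study compiled genes of ubiquitination, autophagy and the endoplasmic reticulum from these same libraries, so their direction is no independent evidence. Its lists come from a cluster of genes higher with α9k1 than with GFP and from co-expression modules. With the covariates, 4.47% of all genes were called higher and 5.27% lower. In these lists 3 were higher and 1 lower of 52 ubiquitination genes (median log2FC 0.23). Called were 0 of 23 autophagy genes (0.20) and 0 of 17 endoplasmic reticulum and endosome genes (0.03). An unadjusted limma p under 0.05 was found for 1 autophagy and 1 endoplasmic reticulum gene. Without covariates, 39, 17 and 13 genes of these lists were higher and 1, 0 and 1 lower, where 28.5% of all genes were higher. The ubiquitination genes called higher were Cbfb, at 7.69, 7.20, 6.81 and 7.38 after crush and 5.52 to 6.14 without it (log2FC 1.31 ± 0.39; adjusted p = 0.0658; 11 fits), Cdc16, an anaphase-promoting complex subunit gene, at 0.91 (0.0381; 17 fits), and Rnf115 at 0.50 (0.0842; 7 fits, groups overlapping, and 0.18 without covariates). Of the 6 candidate regulators and casein kinases named by the study, 0 were called with limma at equal covariates, 1 had an unadjusted p under 0.05, and 3 were higher and 1 lower without covariates. The study has some of these genes up and others down in α9k1-crush, so the counts pool opposite directions. A positive interaction was called for 1 of them and a negative one for 0.

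Broader lists of the same machinery had more calls without the covariates than with them, as did all genes. Of all genes, 4.47% were higher and 5.27% lower with the covariates, and 28.5% and 27.1% without them. Among 33 core autophagy genes 0 were called with limma at equal covariates (median 0.06), of which 3 higher and 1 lower had an unadjusted p under 0.05, and 17 were higher and 4 lower without covariates. Among 62 cullin-RING ligase genes 3 were higher and 2 lower (Fbxw8 and Fbxo7), and without covariates 28 and 7. Fbxo2, a neuronal F-box protein gene for glycoprotein disposal, was at 10.21, 9.36, 10.21 and 10.35 after crush and at 7.55 to 8.15 (median 7.82) without it, a log2FC of 1.99 ± 0.43 (SE; adjusted p = 0.0157). Fbxo31 rose by 0.83 (0.0827; 8 fits) and Nae1, a subunit of the NEDD8-activating enzyme, by 0.71 (0.0542; 16 fits). Of 41 proteasome subunit genes, 2 were higher, Psmd9 at 0.79 (0.0553; 15 fits) and Psmd12 at 0.66 (0.0333; 18 fits), and 35 had a positive log2FC. Without covariates 20 of them were higher and 4 lower. Motor genes of the kinesin, dynein and dynactin families had 3 higher and 0 lower of 37, Kif3a at 1.02 (0.073; 10 fits), Kif5b at 0.90 (0.0328; 18 fits) and Kif1b at 0.78 (0.0758; 9 fits). Without covariates 27 of these were higher and 3 lower, and the values after crush lay above all those without it in 20, against 17.4% of all genes. Among 42 tubulin, microtubule protein and neurofilament genes, 6 were higher and 1 lower, the higher ones including Tuba4a at 1.26 (0.031; 18 fits) and the dendritic protein gene Map2 at 1.07 (0.0549; 15 fits), and without covariates 22 were higher and 4 lower.

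**Figure D3:**
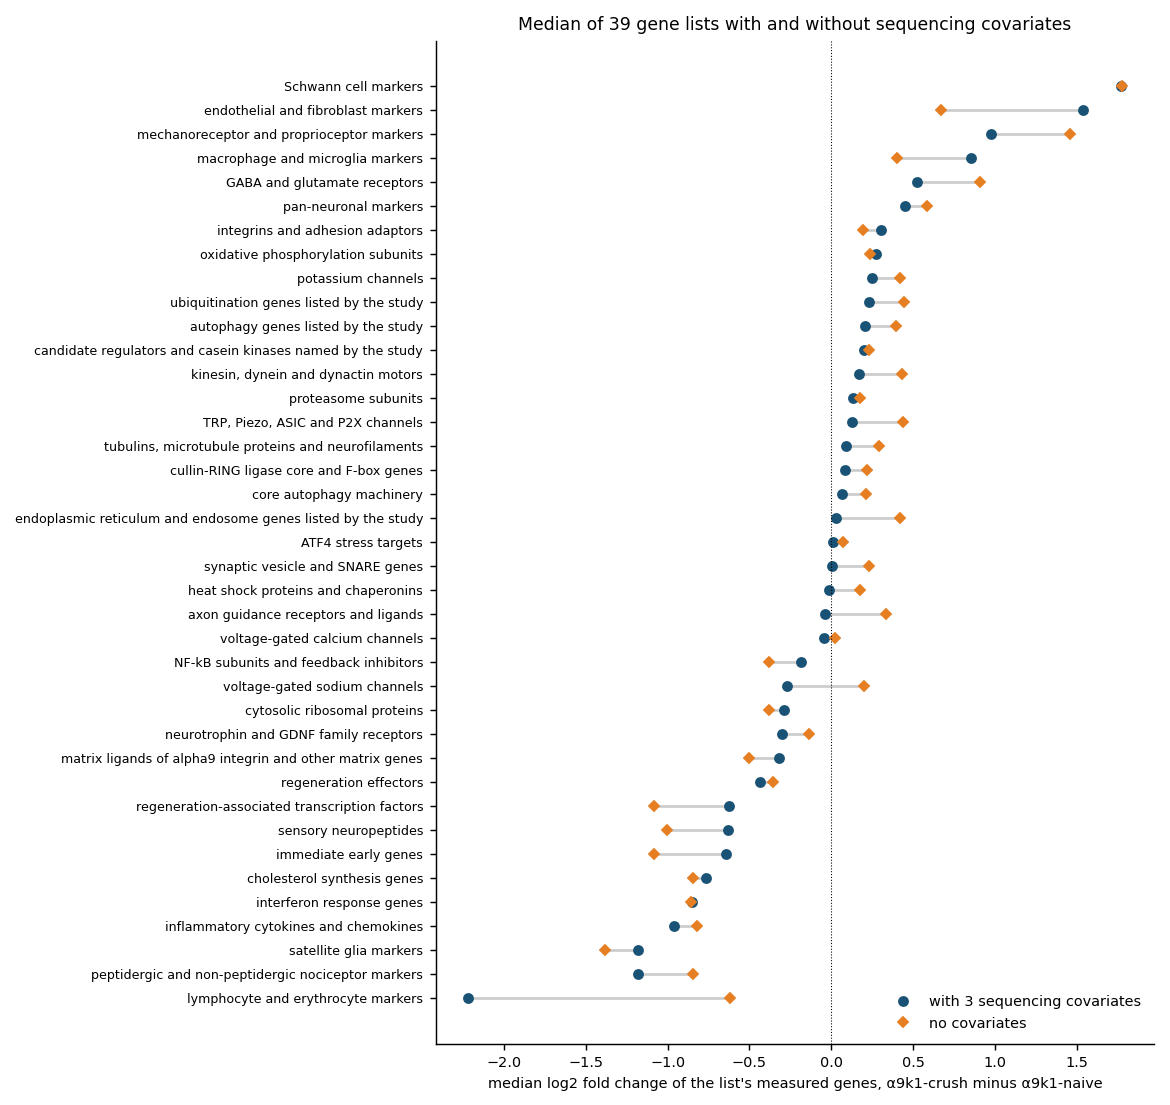
Median log2FC of α9k1-crush against α9k1-naive (x axis) for each of 39 gene lists (y axis) in the fit with 3 sequencing covariates (circles) and in the fit without covariates (diamonds). The interferon, cholesterol and Schwann cell medians move little, the autophagy median goes from 0.20 to 0.39 and the ubiquitination median from 0.23 to 0.45, and the medians of sodium channels (-0.27 to 0.20), axon guidance genes (-0.04 to 0.33), heat shock proteins (-0.01 to 0.18) and calcium channels (-0.05 to 0.02) change sign.

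Of 23 integrins and adhesion adaptors, a list that leaves out the transgenes Itga9 and Fermt1, 3 were higher and 1 lower (without covariates, 10 and 7). Itga7 and Itga6, which encode laminin receptor subunits, rose by 1.25 and 1.32 (adjusted p = 0.0358; 18 fits), Itgb5 by 1.01 (0.077; 9 fits), and the kinase gene Src fell by 1.39 (0.055; 15 fits, groups overlapping). Among 18 matrix genes 5 were higher and 6 lower (without covariates, 5 and 10). Ligands of α9 integrin were among the lower ones, with tenascin-C (Tnc) at 5.45, 5.53, 5.47 and 4.85 after crush and 6.10 to 6.49 without it (log2FC -1.32 ± 0.43; adjusted p = 0.0844; 8 fits), and osteopontin (Spp1) as given above. The thrombospondins went apart: Thbs2 was at 5.10, 4.94, 4.95 and 5.95 after crush against 0.85 to 2.64, while Thbs1 was at 3.01, 2.95, 2.84 and 2.18 against 4.55 to 5.05 (log2FC -1.87 ± 0.43; adjusted p = 0.0214). Nell1 fell by 1.49 (0.0591; 13 fits). Of 33 axon guidance genes, 3 were higher and 1 lower (without covariates, 14 and 9). Efnb2, which encodes ephrin-B2, rose by 2.87 ± 0.39 (adjusted p = 0.00144), Slit2 by 2.31 (0.0184; 18 fits) and the semaphorin receptor gene Nrp1 by 2.29 (0.0542; 16 fits), and the plexin gene Plxnb2 fell by 0.97 (0.0624; 13 fits).

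Markers of other cells of the ganglion changed in the same comparison. Of 14 Schwann cell markers, 12 were higher and 0 lower, with a median log2FC of 1.77. Ncmap, a gene of myelinating Schwann cells, was at 7.74, 7.89, 6.70 and 8.02 after crush and at 4.37 to 5.08 (median 4.87) without it, a log2FC of 3.32 ± 0.48 (SE; adjusted p = 0.00187). The myelin genes Cldn19, Pllp, Prx and Mbp rose by 3.27, 3.04, 2.76 and 2.26. Mag rose by 1.41 (18 fits), and Pmp22 by 1.03 (3 fits). Of 13 satellite glia markers, 7 were lower and 0 higher, with a median of -1.18. Fabp7 was at 7.06, 7.45, 6.61 and 6.93 after crush and at 9.39 to 9.98 without it (log2FC -2.28 ± 0.26; adjusted p = 5.09e-04), Apoe fell by 1.68 ± 0.26 (0.00301) and Glul, glutamine synthetase, by 1.18 (0.00672). In these 2 lists every crush library lay apart from every naive library by the list mean, 7.37 to 8.02 against 6.03 to 6.37 for Schwann cells and 6.83 to 7.38 against 8.24 to 8.53 for satellite glia.

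Of 12 endothelial and fibroblast markers, 7 were higher and 0 lower. Col3a1, a fibrillar collagen gene, was at 6.44, 6.39, 6.20 and 6.21 after crush and at 4.22 to 5.41 without it (log2FC 2.29 ± 0.40; adjusted p = 0.00535), and Emcn rose by 2.33 (0.0141, groups overlapping). Dcn, the fibroblast proteoglycan gene decorin, had a log2FC of 3.20 (0.0842; 7 fits) but only 0.48 without covariates, where the groups overlapped. The list mean was 3.26 to 4.19 in α9k1-crush and 2.78 to 3.87 in α9k1-naive, which overlapped. Of 11 macrophage markers 2 were higher, Cd68 at 1.84 (0.0449; 18 fits) and C1qc at 1.22 (0.0809; 6 fits), and both had overlapping groups. Without covariates their log2FC was 0.56 and 0.24, and C1qc was not called, while 5 of the 11 macrophage markers were called higher and 0 lower. Of 6 lymphocyte and erythrocyte markers, 0 were called with limma at equal covariates and 0 had an unadjusted p under 0.05 (1 was higher without covariates), and their mean was 8.16 in α9k1-naive replicate 3, 4.73 in replicate 6 and 2.06 to 2.59 in the other 4 naive libraries. The part of all these cells in the neuronal differences was not tested.

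**Figure D4:**
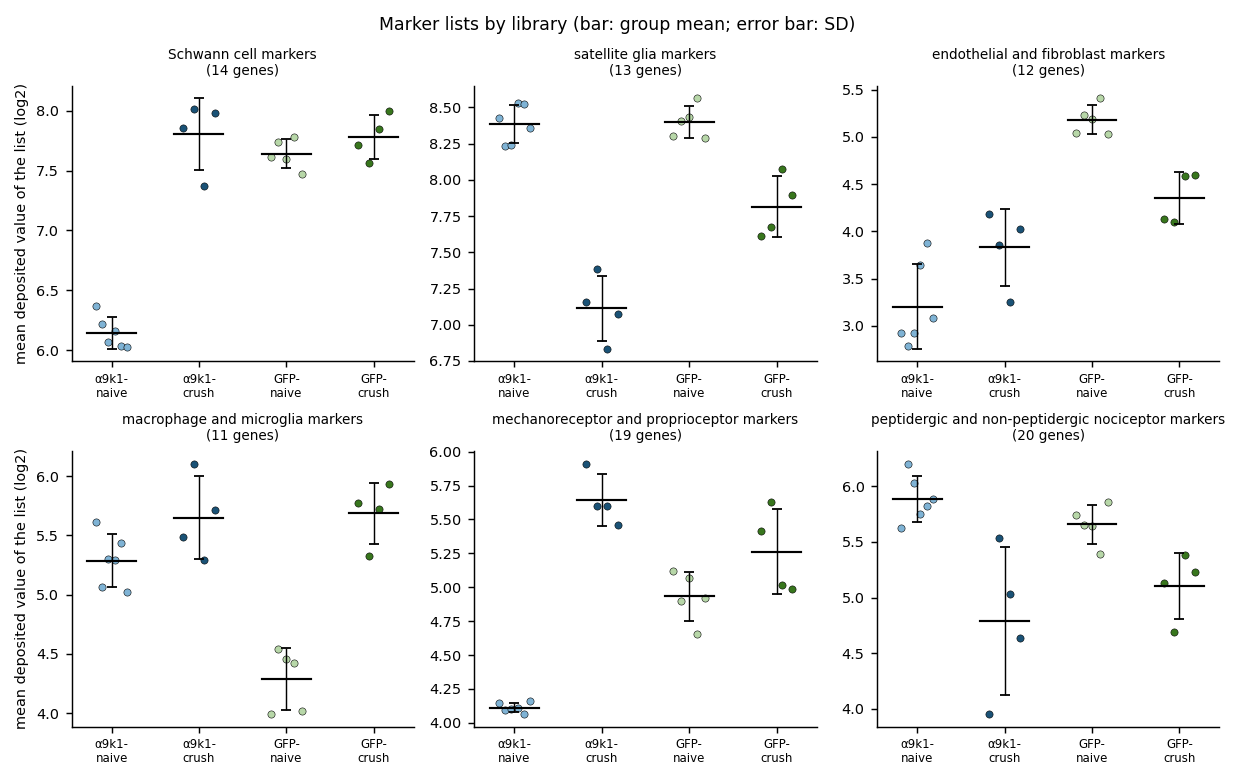
Mean deposited log2 value of 6 marker lists (y axes, not starting at 0) in each library of the 4 groups (x axes), with a bar for the group mean and an error bar for the SD. Schwann cell and large-fibre markers are lower in α9k1-naive than in the other 3 groups, satellite glia markers are lowest in α9k1-crush, and nociceptor markers are spread most in α9k1-crush (3.95 to 5.54).

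Whether the crush effect with α9k1 differed from that with GFP was asked with the interaction term of the same fit. It was positive for 171 genes (1.35%) and negative for 107 (0.847%), a split that turned to 128 and 134 after quantile normalization and to 118 and 167 in median-centred libraries. Single libraries moved these counts: positive and negative interactions numbered 268 and 173 when α9k1-crush replicate 2 was left out, and 76 and 44 when α9k1-crush replicate 4 was. For α9k1-naive replicate 4 they were 103 and 58, for GFP-crush replicate 2 they were 68 and 56, and for GFP-naive replicates 3 and 4 they were 70 and 48, and 99 and 59. Omitting α9k1-naive replicate 2 gave 104 positive ones, and omitting α9k1-naive replicate 1 gave 59 negative ones. Of the 565 genes higher with α9k1, 131 had a positive interaction and 0 a negative one, and of the 665 lower genes 52 had a negative interaction and 0 a positive one. The interaction contains the same α9k1 difference that selected these genes, so this match of signs is a description. Kcns1 was called, with 4.15 ± 0.66 (SE; adjusted p = 0.01), since it rose by 4.95 with α9k1 and by 0.80 with GFP. Slc17a7 (3.20; adjusted p = 0.0071), Syt2 (2.82; 0.016), Kcna1 (2.59; 0.019) and Scn1a (2.38; 0.021) also had positive interactions, and of these Slc17a7 alone was called higher with GFP too, by 1.06 (adjusted p = 0.009). Schwann cell genes were among the positive interactions too, 8 of 14, with Ncmap at 2.78 (0.028), and so were 6 of 12 endothelial and fibroblast genes, with Col3a1 at 3.57 (0.0022) because it rose with α9k1 and fell by 1.28 with GFP (adjusted p = 0.0023). Negative interactions included Gal (-3.88; 0.038), Oasl1 (-3.07; 0.013) and Mb21d1 (-1.78; 0.048).

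The interactions furthest from 0 among genes called in both tests were partly those of very short genes. Mir1224 at 6.41 (adjusted p = 0.043), Mir378d at 4.93 (0.043), Gm25847 at -3.72 (0.022) and Gm25248 at -6.25 (0.0019) are annotated as miRNA genes of 85 to 110 bases, and all 4 had overlapping α9k1 groups. Their crush effect with α9k1 was called in 15 of the fits that left out 1 library for Mir1224, in 5 for Mir378d (at 1.60 without α9k1-naive replicate 4) and in all 19 for the others, and without covariates it was 2.19 for Mir1224, 0.40 for Mir378d and -1.08 for Gm25847. Gm25248 was at 3.45, 4.10, 5.11 and 3.82 after crush and at 2.29 to 3.72 without it, so that the deposited values were higher after crush (0.87) while the log2FC at equal covariates was -3.37. Dcn (4.87; 0.066), Thbs2 (4.27; 0.016) and Cryba2 (-4.43; 0.036) completed this set with Kcns1, Gal and Oasl1.

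For many other called genes the same direction was seen with GFP. Of the 565 genes higher with α9k1, 159 were also higher in GFP-crush than in GFP-naive (28.1% of these and 17% of the 933 higher with GFP, which were 7.39% of all genes) and 27 were lower. Of the 665 lower genes, 387 were also lower with GFP (58.2% of these and 19.5% of the 1984 lower with GFP, which were 15.7% of all genes) and 10 were higher. Ntrk2 fell by 1.16 in both settings, with an interaction of 0.00 ± 0.33 (SE). Il6 fell by 1.56 with α9k1 and by 1.44 with GFP, Irf1 by 0.94 and 1.0, and Ier2 by 1.10 and 1.11. Pvalb rose by 2.97 and 1.74. Their interactions were not called (adjusted p from 0.63 to 0.99).

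**Figure D5:**
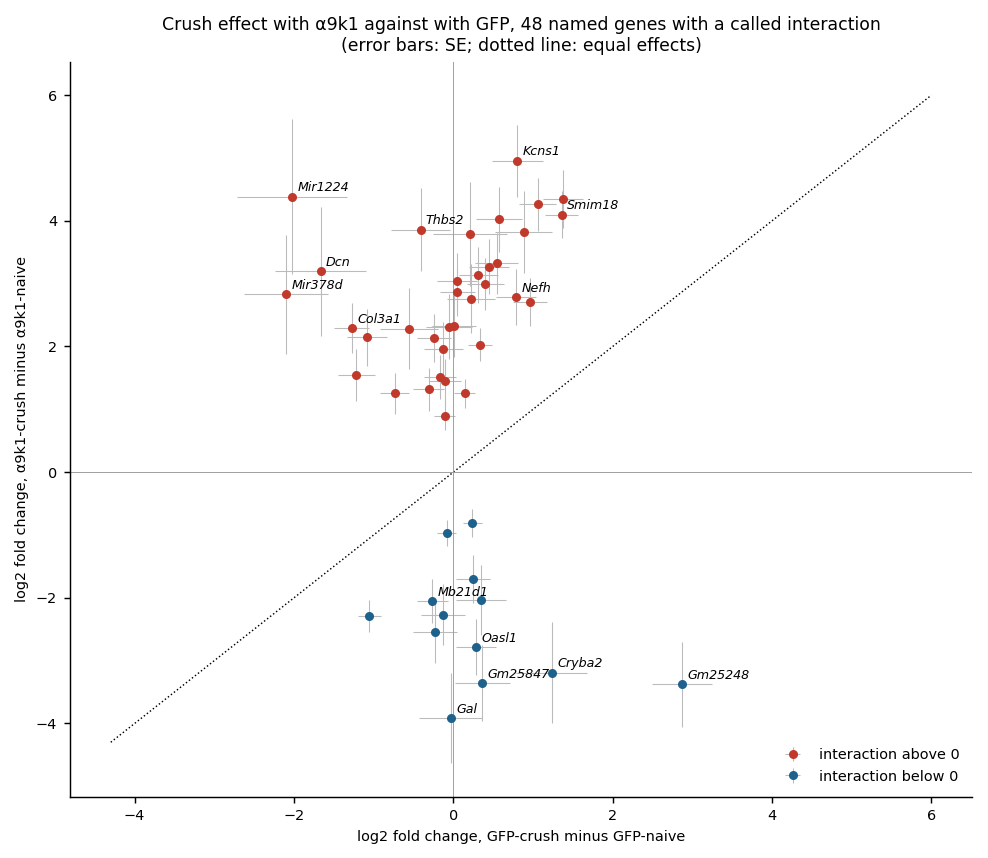
Log2FC of crush with GFP (x axis) against log2FC of crush with α9k1 (y axis) for the 48 named genes whose interaction was called, with SE as error bars and a dotted line where both effects are equal. Positive interactions (red) lie above the line, led by Mir1224, Mir378d, Dcn, Thbs2 and Kcns1, and negative ones (blue) lie below it, led by Gm25248 at 2.87 with GFP and -3.37 with α9k1.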

How the data were processed

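GFP-positive cells sorted from DRGs were profiled by RNA-seq in 19 libraries, 10 of them with α9k1. According to the methods of the study, the authors made libraries with the SMART-Seq v4 kit, which is not strand-specific, mapped reads to mm10/GRCm38 with STAR, removed pairs mapped to different chromosomes with SAMtools, counted reads with Salmon, removed genes with few reads, took log2 with a pseudocount and normalised with cqn; tool versions are not given in the sources used here. The deposited expression values are log2, and carry no gene names, so the order of the authors' gene table was used. The labels and the methods differ on the species, the dissociation enzymes and the RNA kit. The authors' deposited Picard table holds counts of reads and bases, fractions of reads and bases, percent values of AT and GC dropout, and ratios of coverage and coverage bias. The names and values of its 5 columns on duplicates appear shifted against each other. The authors' deposited fold changes and p-values, which the gene table also holds, were not used, and 0 columns of other samples were left out.

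The 48 scaled metrics gave 3 principal components (45.9%, 24.1% and 11.5% of their variance) as covariates of a limma fit (limma 3.58.1, R 4.3.3) of 4 group means to all 19 libraries (12 residual degrees of freedom), with Benjamini-Hochberg adjustment over 12629 genes. The model of the study also has batch, which the labels do not give. The variance of the α9k1 difference was 2.12 times the variance within groups at equal covariates, and 0.417 times without covariates. The fit was tested on simulated data. The 41 gene lists and their member genes were chosen with earlier results of these data known. Named genes are the 12 highest and the 12 lowest log2FC among genes called with and without covariates in groups that did not overlap, the transgenes, called or defining list members, and the 5 highest and the 5 lowest interactions among genes called in both tests. Some genes that met this rule are not reported here. Genes named without a value were added after their values were seen. Exact permutation tests were two-sided, over 210 arrangements. RefSeq promoters (GRCm38.p6, the first listed start of a gene) were matched by symbol and chromosome for 8364 genes, and the 250 bases before the start were searched for 8 motifs. Alternatives were other covariates, the α9k1 libraries alone, a filter on the lowest 25% of genes, quantile or median scaling, array weights, a block and each library left out. Python 3.11.15, pandas 2.3.3, numpy 2.4.6 and matplotlib 3.10.9 were used.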

Additional observations from a re-analysis of the deposited data

Results flagged for a closer look

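Of 326 sets of α9k1 values of the named genes (4 crush or 6 naive libraries each), 22 held a library far from the rest by Dixon's gap test, where chance alone gives about 1 in 20. In α9k1-crush replicate 2 the lowest values stood apart for Nefh (9.92), Fbxo2 (9.36), Kcnab1 (5.96), Gabra2 (5.56), Tmem163 (5.38) and Cacng2 (2.84), which are genes higher with crush, and the highest for Atf4 (8.45) and Bhlhe40 (6.85), which are genes lower with crush. The other libraries after crush that stood apart were replicate 1 for Syt2 (6.66), replicate 3 for Grik4 (3.46) and replicate 4 for Kif5b (8.27), Thbs2 (5.95), Tnc (4.85) and Rsad2 (4.38). Without crush they were replicate 2 for Cyc1 (8.11) and C1qc (5.49), replicate 4 for Trpv1 (5.82), replicate 5 for Src (4.53), and replicate 6 for Il6 (7.67), Ifih1 (5.97), Cbfb (5.52) and Sprr2c-ps (0.30).

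The crush effect with α9k1 differed from that with GFP by the interaction term of limma (adjusted p under 0.1) for 48 of the 163 named genes, some of which were named for this difference. Among neuronal genes the difference, α9k1 minus GFP on the log2 scale, was 4.15 for Kcns1, 3.59 for Ntng1, 3.45 for Htr1d, 3.20 for Slc17a7, 2.97 for Hs3st2, 2.94 for Tmem163, 2.82 for Syt2, 2.74 for Smim18, 2.59 for Kcna1, 2.38 for Scn1a, 2.09 for Necab2, 2.0 for Nefh, 1.74 for Nefm and 1.69 for Syt3. For guidance and integrin genes it was 2.84 for Nrp1, 2.82 for Efnb2, 2.37 for Slit2, 1.63 for Itga6 and 1.11 for Itga7. Genes that mark Schwann cells differed by 2.99 (Pllp), 2.83 (Cldn19), 2.78 (Ncmap), 2.54 (Prx), 1.69 (Scn7a) and 1.55 (Ngfr). Genes of vessels, fibroblasts and matrix differed by 4.87 (Dcn), 4.27 (Thbs2), 3.57 (Col3a1), 3.22 (Col6a1), 2.76 (Rgs5), 2.33 (Emcn) and 1.99 (Col1a1). The miRNA genes Mir1224 and Mir378d were at 6.41 and 4.93, and Gm25248 and Gm25847 at -6.25 and -3.72. Negative differences were found for Cryba2 (-4.43), Gal (-3.88), Oasl1 (-3.07), Adcyap1 (-2.38), Noct (-2.33), Ccl7 (-2.14), Stmn4 (-1.95), Mb21d1 (-1.78), Fabp7 (-1.23), Hspb1 (-1.05) and Fdps (-0.88), and Hspa8 was at 1.01.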

How the results depend on the processing

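The genes higher and lower with crush numbered 3593 and 3424 without covariates, 3624 and 3523 without AlignSeq.PC3, 963 and 1082 with array weights, and 64 and 138 in a fit to the α9k1 libraries alone, which leaves 5 residual degrees of freedom. Leaving out each library in turn gave 274 to 776 higher and 375 to 968 lower genes. The positive and negative interactions numbered 2943 and 2027 without covariates, 2048 and 1318 without AlignSeq.PC3, 354 and 196 with array weights, and 118 and 167 in median-centred libraries, and leaving out each library gave 68 to 268 and 44 to 173. Same-numbered α9k1-crush and α9k1-naive libraries did not deviate together (correlations of 0.00, -0.03, 0.13 and 0.02 for replicates 1 to 4, none best with its own number), so the numbers are taken as names, and a fit with them as a replicate block, which leaves 7 residual degrees of freedom, called 155 higher and 176 lower genes and 19 positive and 7 negative interactions. Among the 163 named genes the sign of the crush effect was kept in each of these settings except for Gm25248, at 0.87 without covariates and 0.34 without AlignSeq.PC3. Of these 163, 75 fell short of the threshold when α9k1-naive replicate 4 was left out and 49 when α9k1-naive replicate 1 was, 132 in the fit to the α9k1 libraries alone and 109 with the block; 4 did so without covariates. Scaling by quantiles or medians, or removing the lowest 25% of genes, kept the crush counts within 529 to 562 higher and 644 to 682 lower genes. The causes of these shifts were not tested. Depth per gene is unknown in normalised values, so low genes cannot be given a counting error.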
